A study of Mus musculus with 32 samples.

Results

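The genes described here are 7 genes of the MHC class II antigen presentation pathway, chosen by name out of the 25700 genes counted in each sample: H2-Aa, H2-Ab1, H2-Eb1, H2-DMa, H2-DMb1, Cd74 and Ciita. Class II molecules present peptides taken up from outside the cell to CD4 T cells. H2-Aa and H2-Ab1 encode the alpha and beta chain of the I-A molecule and H2-Eb1 the beta chain of I-E, Cd74 encodes the invariant chain that escorts new class II molecules to the endosome, and H2-DMa and H2-DMb1 encode the chains of H2-DM, which exchanges the invariant chain remnant for antigenic peptides. Ciita encodes the transactivator that switches class II genes on through a protein complex on their promoters. Dendritic cells, B cells and activated macrophages are the usual sources of these transcripts, and interferon gamma induces them in many other cells.

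The samples came from mouse assembloids, in which a tail tendon core explant is embedded in a collagen hydrogel, after 7 days of culture. The cores came from mice of the line B6.129S2-Il6tm1Kopf/J, aged 12 to 15 weeks and of both sexes, and were either wildtype for Il6 (WT) or labelled knock-out (KO). Core explants were sequenced from WT assembloids with a cell-free hydrogel, a fibroblast hydrogel or a macrophage hydrogel, and from KO assembloids with a cell-free or a fibroblast hydrogel (n = 4 each). The fibroblast hydrogel itself was sequenced in 12 samples, with 6 around cores of each label. The seeded fibroblasts were wildtype Achilles tendon cells pooled from 6 mice in all fibroblast assembloids. A hydrogel labelled KO therefore differs from a WT one in its core and in the cells that came from that core. Each core sample was a pool of 20 to 24 explants of a single mouse, and each hydrogel sample a pool of 2 hydrogels that also held cells which had left the core. The culture medium held macrophage colony-stimulating factor in every group, as the methods describe it, and the labels do not give the genotype of the seeded macrophages.

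Library totals ran from 20.4 to 59.9 M estimated counts (1 M being 1000000), and levels are given as CPM, the count divided by the library total in M, so that 1 CPM stands for at least 20.4 counts. Il6, the targeted gene, was counted in every library, at 2.08 to 17.1 CPM in the WT cores, 6.84 to 35.1 CPM in the cores labelled KO, 4.01 to 9.47 CPM in the hydrogels with a WT core and 5.56 to 36.7 CPM in those labelled KO. It therefore did not set the libraries labelled KO apart as lacking the transcript, and the genotype is a label throughout. Counts of transcript do not show whether the protein is made. In a separate experiment the paper measured IL-6 protein in supernatants of WT and KO cores, and it describes the IL-6 levels of KO assembloids as reduced. Nothing in the labels says whether samples of a group came from separate cultures beyond the separate mice of the cores, so that p-values measure the spread between these samples. No 2 of the 32 samples held identical counts.

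A stretch of promoter that class II genes share is shown first, because it is the element through which the transactivator encoded by Ciita acts. RefSeq start sites of the assembly GRCm38.p6 were available for 4 of the 7 genes, with 250 bases before and 50 bases after each start. The letters GNAACT of an X box, followed 15 to 45 bases downstream by the Y box letters ATTGG, were found in H2-DMb1, H2-Aa and H2-Eb1. The motif was written down after these sequences had been seen, and the search covered both strands. The pair was present in 459 of 32851 promoter windows of this length (1.40%), and ATTGG or its complement CCAAT alone in 37.4%. Neither of the 2 entries for H2-DMa held the pair. Capitals mark the X and Y box letters, and the windows are written 5′ to 3′ on the strand of the gene.
H2-DMb1, chr17:34153089-34153139, plus strand, 102 to 52 bases before the start: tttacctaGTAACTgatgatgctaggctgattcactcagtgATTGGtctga
H2-Aa, chr17:34287862-34287912, minus strand, 89 to 39 bases before the start: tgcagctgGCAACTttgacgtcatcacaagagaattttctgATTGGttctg
H2-Eb1, chr17:34305768-34305817, plus strand, 99 to 50 bases before the start: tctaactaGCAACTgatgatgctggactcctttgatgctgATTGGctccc
The boxes were separated by 27 bases in H2-DMb1 and H2-Aa and by 26 bases in H2-Eb1. A match of letters is a description and not a binding site, and these 3 genes did not share a pattern of levels, as the values below show: H2-DMb1 was the most abundant of the 7 genes per length, and H2-Aa and H2-Eb1 were among the least abundant.

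The class II genes were at low levels, and each was counted in every library except H2-Aa, which was at 0 in 1 hydrogel labelled KO. Per kilobase of the longest coding transcript in the GENCODE M21 annotation, which is not the annotation of the deposited counts, the median over the 20 cores was highest for H2-DMb1 (4.52 CPM per kb), followed by Cd74 (1.83), H2-DMa (1.23), H2-Ab1 (1.13), Ciita (0.383), H2-Aa (0.371) and H2-Eb1 (0.192). Over the 12 hydrogels H2-DMb1 (10.1 CPM per kb) and Cd74 (3.02) again led, and Ciita was last (0.0880). On the same scale the class I heavy chain genes H2-K1 and H2-D1 were at 359 and 539 CPM per kb in the cores, their light chain B2m at 1330, and Ctss, the protease that degrades the invariant chain, at 311. The median of Cd74 per kilobase was thus far under that of every one of these genes, and the chain genes H2-Aa and H2-Eb1 were at 0 to 68 and 2 to 28 counts per library.

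**Figure D1:**
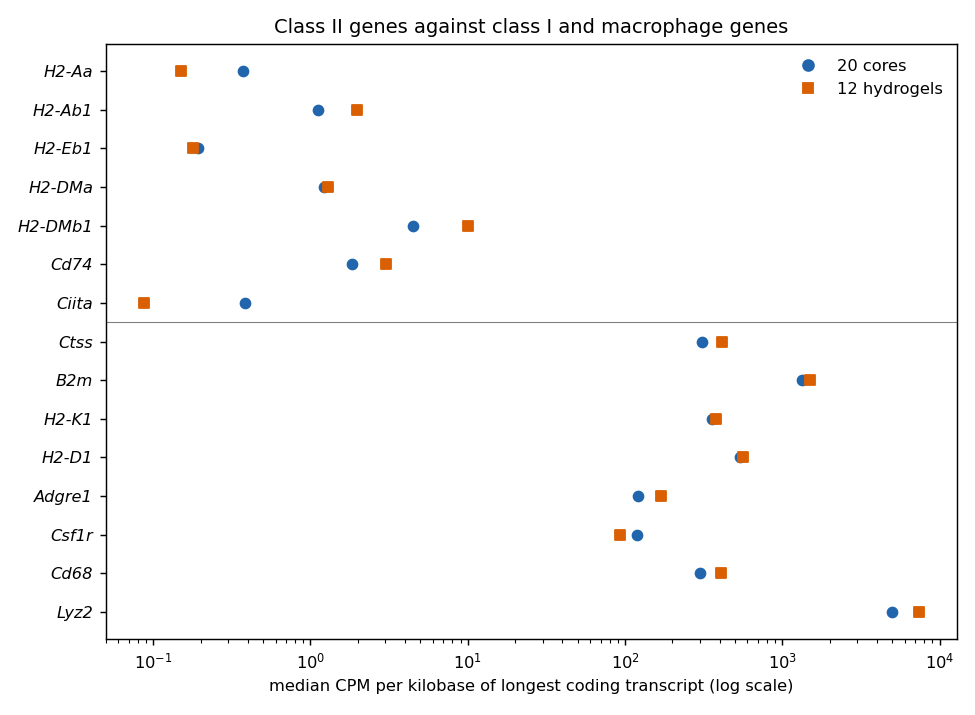
Median CPM per kilobase of coding transcript (log scale) in the 20 cores (circles) and the 12 hydrogels (squares), for the 7 class II genes above the line and for class I, protease and macrophage genes under it. The class II genes lie between 0.0880 and 10.1 CPM per kb, and the lowest other gene shown, Csf1r in the hydrogels, lies at 93.3.

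These low levels stood beside abundant macrophage transcripts. The summed level of 12 macrophage markers (Adgre1, Csf1r, Cd68, Lyz2, Itgam, Fcgr1, Mertk, C1qa, C1qb, C1qc, Mrc1 and Ptprc) ranged from 6935 to 19210 CPM in the cores and from 2117 to 27550 CPM in the hydrogels. None of the 12 had a median under 1 CPM over the 32 samples. The summed level was no higher in the cores beside seeded macrophages (6935 to 13340 CPM) than in WT cell-free cores (11060 to 14740 CPM). There 1 of the 12 genes, Itgam, was called lower, where 4.60% of 16441 genes were called in either direction. For other professional antigen-presenting cells, 5 of 7 dendritic cell markers (Flt3, Xcr1, Clec9a, Ccr7 and Cd209a) and the B cell markers Ms4a1, Cd79a, Cd79b and Pax5 had medians under 1 CPM, while Zbtb46, a transcription factor of classical dendritic cells, had a median of 7.35 CPM and Itgax, a marker that macrophages share, 20.7 CPM. The T cell markers Cd3e, Cd3d, Cd3g and Cd8a had medians under 1 CPM as well, and Cd4, the fifth, had 8.08. Ifng was at 0 to 3 counts in every library, whereas Irf1, an interferon gamma-responsive transcription factor, had a median of 43.0 CPM.

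**Figure D2:**
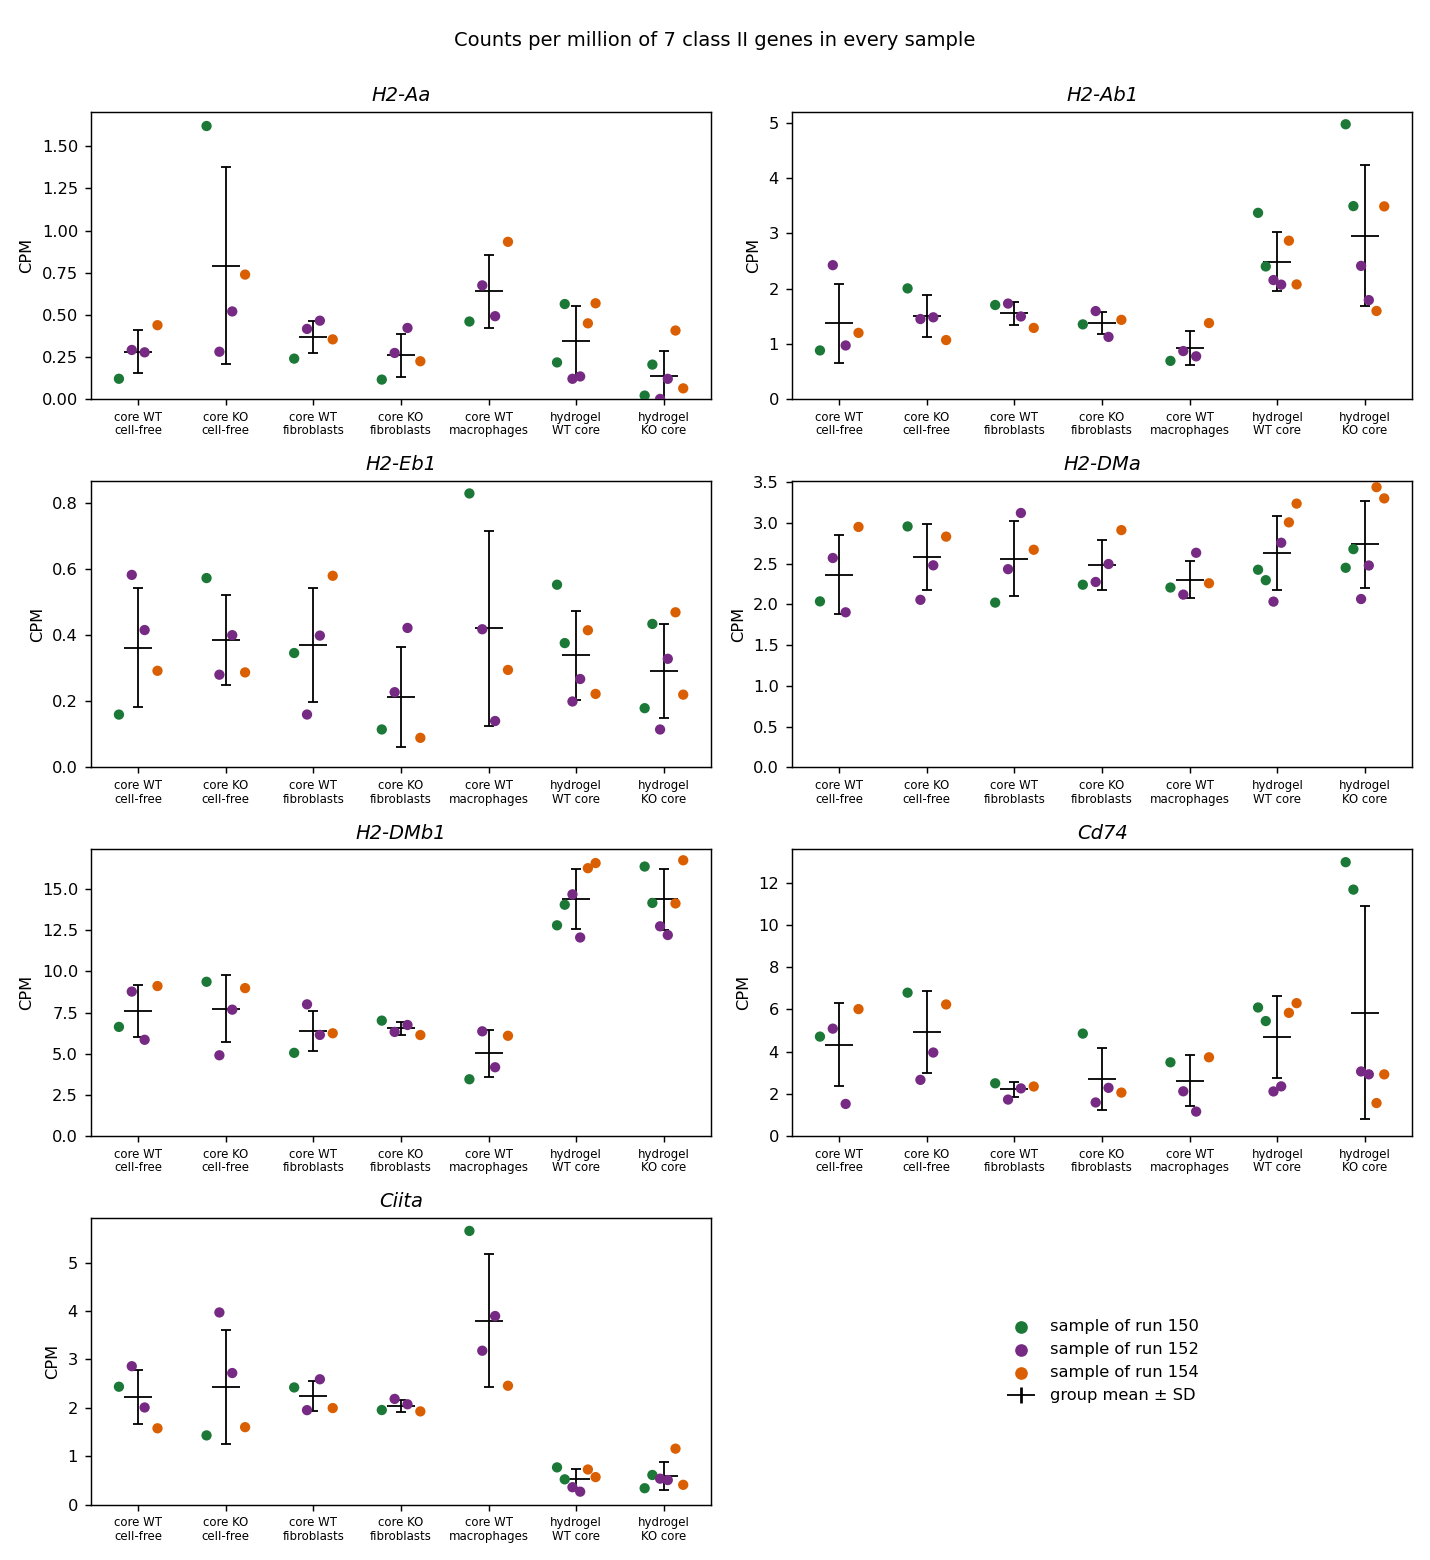
CPM of each of the 7 genes (a panel each, linear axis from 0) in every sample of the 7 groups, coloured by run code of the sample title, with the group mean and SD. H2-DMb1 lies between 12.1 and 16.8 CPM in the hydrogels and between 3.45 and 9.37 CPM in the cores, Ciita between 0.267 and 1.16 CPM in the hydrogels and between 1.43 and 5.66 CPM in the cores, and the other genes overlap.

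The clearest pattern lay between the 2 compartments of the fibroblast assembloids, the hydrogel and the core it surrounded. H2-DMb1 and H2-Ab1 were higher in the hydrogel with either core, Cd74 was called higher with a WT core, and Ciita was lower with either core. H2-DMa, the partner chain of H2-DMb1, was not called with either core, nor was H2-Eb1. Calls required an adjusted p below 0.05 in edgeR's quasi-likelihood test (Benjamini-Hochberg over all genes tested) together with an absolute log2 fold change above 0.5. With a WT core, 3 of the 7 genes were called higher and 1 lower, where 42.8% of 16037 genes were called (18.1% higher and 24.7% lower). For the cores labelled KO, 2 of 6 tested genes were called higher and 1 lower, where 41.6% of 16084 genes were called (17.0% higher and 24.6% lower). The members' share lay near that background and is not in itself a result about class II genes. How many of all genes separate hydrogels from cores without overlap was not computed. The hydrogel and the core differ in their cells, and in bulk RNA fewer cells of a type and less RNA per cell cannot be told apart. By the methods, every hydrogel pool but not every core pool passed the checks of RNA integrity and concentration. The part of RNA quality in the differences between compartments was not tested.

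H2-DMb1, the beta chain of H2-DM, was at 5.05, 8.0, 6.14 and 6.24 CPM in the WT cores beside fibroblasts. In the hydrogels with a WT core it ranged from 12.1 to 16.6 CPM (median 14.4). Every hydrogel lay above every core, and this held for all 12 hydrogels against all 20 cores of the series. The mean was 14.4 ± 1.82 CPM (SD, n = 6) against 6.36 ± 1.22 CPM (SD, n = 4), a log2 fold change of 1.22 (SE 0.12, adjusted p of 5.9e-06 from edgeR). Cores labelled KO were at 7.01, 6.32, 6.75 and 6.14 CPM and their hydrogels between 12.2 and 16.8 CPM (median 14.1), with a log2 fold change of 1.23 (SE 0.13, adjusted p of 5.0e-05 from edgeR). The difference held within each run, between 0.88 and 1.33 on the log2(CPM + 0.5) scale. The two-sided p of the exact permutation test was 0.00952 with either core, the smallest that 4 and 6 samples allow. The near-identical neighbour gene H2-DMb2 had a median under 1 CPM, and how reads were split between the pair is not known.

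H2-DMa encodes the chain that H2-DMb1 pairs with, and its level showed no such step. It was at 2.02, 2.43, 3.12 and 2.67 CPM in the WT cores beside fibroblasts and between 2.03 and 3.24 CPM (median 2.59) in their hydrogels. These ranges nearly coincide. Its log2 fold change was 0.08 (SE 0.17, adjusted p of 0.69 from edgeR) with a WT core and 0.23 (SE 0.18, adjusted p of 0.32) with a core labelled KO. Over all 32 samples H2-DMa stayed between 1.90 and 3.44 CPM. Per kilobase the median of H2-DMb1 was 4.52 against 1.23 CPM for H2-DMa in the cores, and 10.1 against 1.29 in the hydrogels. H2-DMa overlaps Brd2 on the opposite strand, a gene at 127 to 241 CPM, and no source used here gives the strand setting of the counting.

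H2-Ab1, the beta chain of I-A, was at 1.70, 1.73, 1.49 and 1.29 CPM in the WT cores beside fibroblasts. Their hydrogels ranged from 2.07 to 3.37 CPM (median 2.28), and the groups did not overlap. From core to hydrogel the log2 fold change was 0.72 (SE 0.18, adjusted p of 0.0037 from edgeR; exact permutation test, two-sided, p = 0.00952). Cores labelled KO were at 1.35, 1.59, 1.12 and 1.43 CPM. Their hydrogels ranged from 1.59 to 4.98 CPM (median 2.95), with the lowest hydrogel barely above the highest core. The log2 fold change was 1.22 (SE 0.36, adjusted p of 0.014 from edgeR). H2-Aa, the alpha chain of the same molecule, was at 0.239, 0.416, 0.465 and 0.354 CPM in the WT cores and between 0.120 and 0.568 CPM (median 0.333) in their hydrogels, a log2 fold change of -0.05 (SE 0.47, adjusted p of 0.94 from edgeR).

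With a core labelled KO, H2-Aa fell under the filter on low counts and was not tested. The hydrogels held 0 to 13 counts, and the library at 0 allows a level of up to 0.115 CPM (3 counts). H2-Eb1 was at 2 to 28 counts over the 32 libraries. Its log2 fold change was -0.07 (SE 0.39) with a WT core and 0.54 (SE 0.50) with a core labelled KO, both with an adjusted p over 0.38 from edgeR. At this depth a difference of the size seen for H2-Ab1 could not be told from none in H2-Aa or H2-Eb1. Intervals and floors cover counting error only.

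Cd74, the invariant chain, was at 2.50, 1.73, 2.26 and 2.35 CPM in the WT cores beside fibroblasts and between 2.11 and 6.30 CPM (median 5.64) in their hydrogels. The 2 hydrogels of run 152 lay within the range of the cores and the other 4 above it. The log2 fold change was 1.12 (SE 0.34, adjusted p of 0.010 from edgeR), whereas the two-sided p of the exact permutation test was 0.0762. Cores labelled KO were at 4.86, 1.59, 2.28 and 2.06 CPM and the hydrogels between 1.56 and 12.98 CPM (median 2.99).
The 2 hydrogels of run 150, at 12.98 and 11.7 CPM, stood above all others of the series, and the remaining 4 overlapped the cores. The log2 fold change was 1.24 (SE 0.66, adjusted p of 0.14 from edgeR), and Cd74 was not called. With the assembloid as a block, in the samples that share a run and N code, the value was 0.90 with an adjusted p of 0.0035, and Cd74 was called. That fit left out hydrogel replicates 1 and 5, which had no matching core. These were the highest (12.98 CPM) and the lowest (1.56 CPM) hydrogels of the group. Whether the step from core to hydrogel differed between the 2 labels was tested with an interaction term added after the data were seen, and for Cd74 the difference was 0.12 (SE 0.76, adjusted p of 1.00 from edgeR). No class II gene passed that interaction test, with unadjusted p-values from 0.21 to 0.88.

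Ciita ran the other way. It was at 2.42, 1.95, 2.59 and 2.00 CPM in the WT cores beside fibroblasts and between 0.267 and 0.769 CPM (median 0.545) in their hydrogels. Every one of the 12 hydrogels lay under every one of the 20 cores. The mean was 0.535 ± 0.198 CPM (SD, n = 6) against 2.24 ± 0.315 CPM (SD, n = 4), a log2 fold change of -2.03 (SE 0.26, adjusted p of 3.6e-05 from edgeR).
Cores labelled KO were at 1.95, 2.18, 2.07 and 1.93 CPM and the hydrogels between 0.339 and 1.16 CPM (median 0.521), a log2 fold change of -1.70 (SE 0.29, adjusted p of 6.1e-04 from edgeR). The difference was negative within each run, between -0.98 and -1.76 on the log2(CPM + 0.5) scale. The hydrogel values rest on 9 to 39 counts per library. Ciita overlaps Dexi on the opposite strand, which was at 6.96 to 13.01 CPM over the samples.

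**Figure D3:**
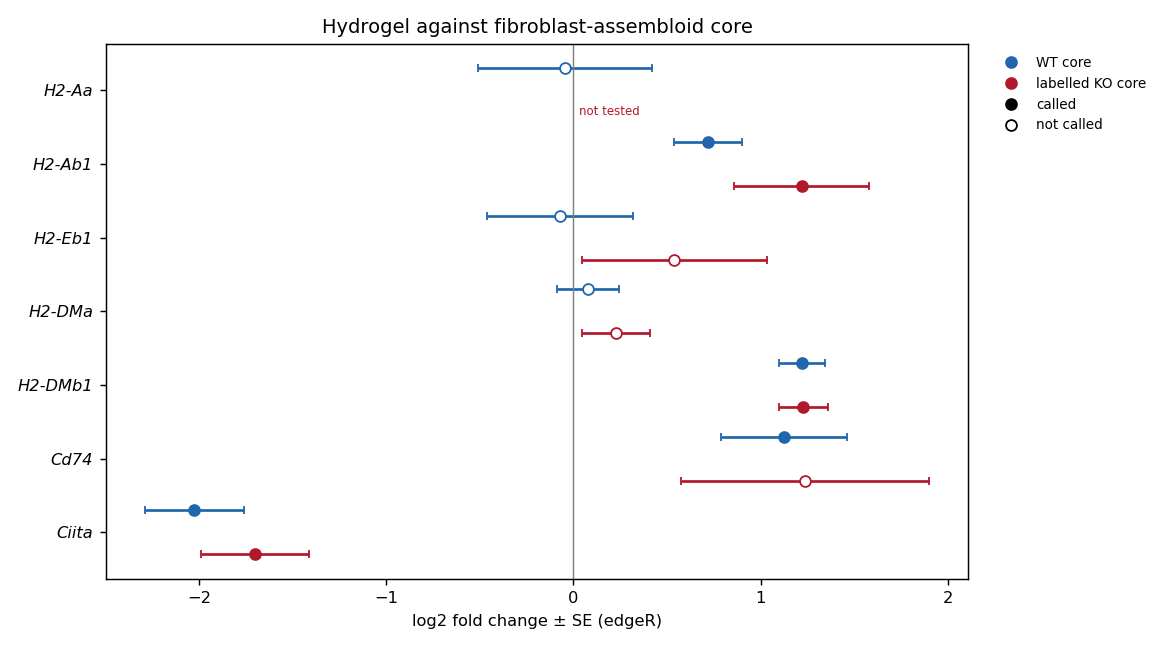
Log2 fold change of hydrogel over core with its SE (edgeR) for the 7 genes, with a WT core and with a core labelled KO; filled circles passed the call rule. H2-DMb1 is at 1.22 and 1.23 and Ciita at -2.03 and -1.70, while H2-DMa lies at 0.08 and 0.23 and H2-Aa was not tested with a core labelled KO.

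Genes of the wider pathway were counted in the same comparison, and their counts are to be read against the 18.1% of all genes called higher and 24.7% called lower with a WT core (17.0% and 24.6% with a core labelled KO). H2-Ob, a chain of the H2-DM inhibitor H2-O, was the 1 other class II gene tested, with a core labelled KO only, and was called lower (-1.59). The 4 genes of its list had a median summed level of 0.696 CPM in these cores and 0.3225 CPM in their hydrogels. A gene this low can pass the filter through the group where it is higher, so the direction of this call is not an independent result. Of the 7 subunits and partners of the class II promoter complex, 0 were called higher and 1 lower with either core: Rfx5, a DNA-binding subunit of the RFX complex, with a log2 fold change of -0.53 (SE 0.08, adjusted p of 7.3e-05 from edgeR) with a WT core and -0.72 (SE 0.08, adjusted p of 5.1e-05) with a core labelled KO. Of 7 genes of class II peptide loading and turnover, 4 were called higher with a WT core (Ctss at 0.70, Ctsl at 0.51, Ctsd at 0.66 and Lgmn at 0.52) and Ctsl alone with a core labelled KO (0.71). These are endosomal proteases. Of 12 MHC class I genes, 3 were called higher with a WT core, the peptide transporter gene Tap1 (0.50) and the immunoproteasome genes Psmb8 (0.78) and Psmb9 (0.63), and 0 with a core labelled KO. Of 5 tested co-stimulation genes, Cd80 (0.67) and Cd40 (0.78) were called higher with a WT core, and Icosl was called lower with a core labelled KO (-0.84).

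Markers of cell types moved between the compartments as well. With a WT core 5 of 12 macrophage markers were called higher in the hydrogel (Adgre1, Csf1r, Cd68, Lyz2 and Fcgr1, from 0.51 to 1.28 on the log2 scale) and the list's median log2 fold change was 0.48, beside -0.00078 over all genes tested. With a core labelled KO 0 of 12 were called, and the median was 0.53. Of 6 tenocyte markers, 5 were called lower with a WT core (Scx, Tnmd, Mkx, Fmod and Thbs4, list median -1.31) and 3 with a core labelled KO (Mkx, Fmod and Thbs4, list median -1.05). Of 5 fibroblast markers, Dpt, Thy1 and Dcn were called lower with either core (list medians -0.78 and -0.64). Over all genes the shares were those given above, 18.1% higher and 24.7% lower with a WT core. The summed marker level was 9596 to 16650 CPM in the hydrogels with a WT core and 8789 to 10250 CPM in their cores. The B cell markers Cd79a and Pax5 were both called lower with a WT core (-2.24 and -1.35), and the dendritic cell markers Zbtb46 and Clec9a were called lower with either core. The part of these marker differences in the levels of the class II genes was not tested.

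Within a compartment, the macrophage marker level (the mean log2(CPM + 0.5) of the 12 markers) was set beside each class II gene over the samples, which share their library depth and scaling. None of the 14 relations had an adjusted p under 0.05 (100000 permutations, Benjamini-Hochberg over the 14). Cd74 in the 12 hydrogels had r = 0.64 (permutation p = 0.0129, adjusted 0.0904) and rho = 0.61 (permutation p = 0.0401, adjusted 0.187). Without the 2 samples farthest from the median marker level r was 0.36, so that the relation rests on those samples. With each run centred r was 0.76, and with 4 hydrogels a run no value within a run was computed. H2-Ab1 in the hydrogels had r = 0.59 (permutation p = 0.043, adjusted 0.106) and rho = 0.55 (permutation p = 0.0697, adjusted 0.244). Its r was 0.057 without the 2 farthest samples and 0.62 with each run centred. Relations of the opposite sign had Pearson values of similar size. H2-DMa in the hydrogels had r = -0.63 (permutation p = 0.0122, adjusted 0.0904), rho = -0.64 (permutation p = 0.0283, adjusted 0.187), -0.59 without the 2 farthest samples and -0.27 with each run centred. Ciita there had r = -0.67 (permutation p = 0.0283, adjusted 0.106) and rho = -0.26 (permutation p = 0.417, adjusted 0.670), but 0.12 without the 2 farthest samples, so that its relation rests on them. H2-DMb1 in the hydrogels had r = -0.01 (permutation p = 0.976) and 0.67 with each run centred. In the 20 cores H2-DMb1 had r = 0.47 (permutation p = 0.0384, adjusted 0.106), 0.56 within run 152, and rho = 0.50 (permutation p = 0.0260, adjusted 0.187). Cd74 in the cores had r = 0.45 (permutation p = 0.0455, adjusted 0.106), 0.15 within run 152, and rho = 0.35 (permutation p = 0.130, adjusted 0.365).

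The hydrogel labelled KO with the fewest macrophage transcripts, replicate 5, gives these values in a single library. Its summed marker level was 2117 CPM, against 10930 CPM in the next lowest hydrogel labelled KO. H2-DMb1 was at 14.1 CPM there, close to the median of its group, whereas Cd74 (1.56 CPM) and H2-Ab1 (1.59 CPM) were the lowest of their group and Ciita (1.16 CPM) the highest. Without this library the log2 fold change of H2-DMb1 between compartments stayed within 1.22 and 1.28, the range over every sample left out.

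**Figure D4:**
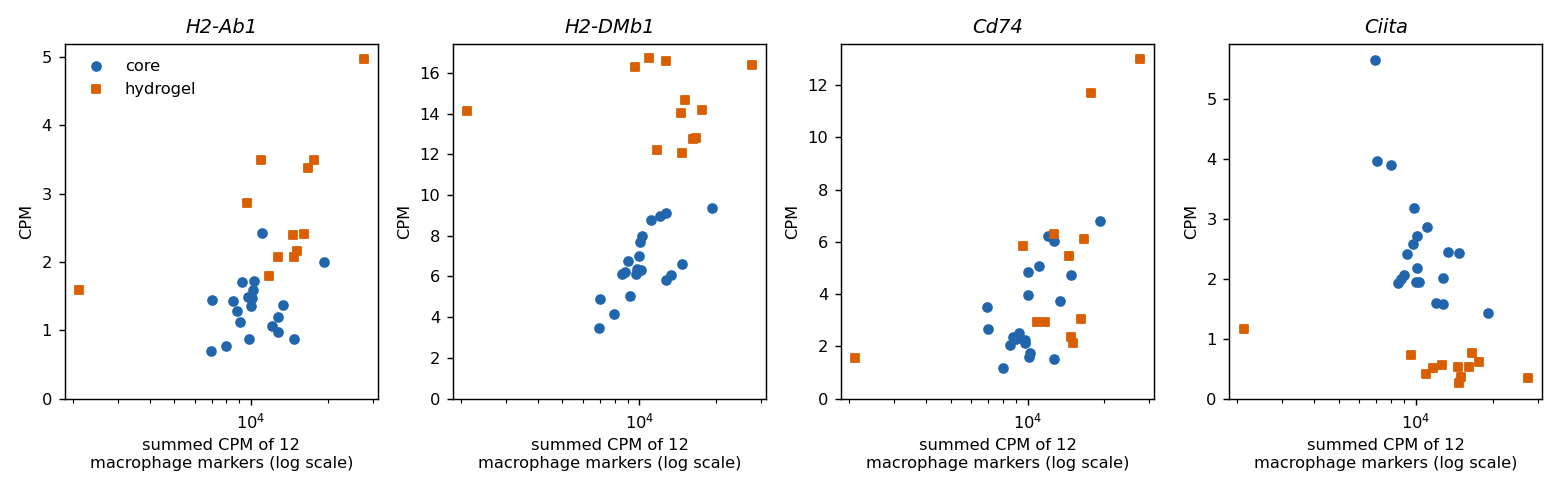
CPM of H2-Ab1, H2-DMb1, Cd74 and Ciita (linear axes from 0) against the summed CPM of 12 macrophage markers (log axis) in the 20 cores (circles) and the 12 hydrogels (squares). The library at 2117 CPM of macrophage markers has 14.1 CPM of H2-DMb1, inside the range of the other hydrogels, and 1.56 CPM of Cd74, the lowest hydrogel value.

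The next question was whether seeded macrophages changed the class II genes of the WT core. By edgeR none of the 7 genes was called, where 4.60% of 16441 genes were. DESeq2 called 0 of them as well, and 3 passed the same fold threshold with an unadjusted p under 0.05 by edgeR, where 10.3% of all genes did. Levels went in different directions: H2-Aa and Ciita had positive and H2-DMb1, H2-Ab1 and Cd74 negative log2 fold changes.
H2-Aa was at 0.120, 0.291, 0.277 and 0.438 CPM in cell-free cores and at 0.46, 0.675, 0.492 and 0.933 CPM beside macrophages. The groups did not overlap, at 3 to 21 counts per library. Its log2 fold change was 1.01 (SE 0.43, adjusted p of 0.20 from edgeR). The two-sided p of an exact permutation test was 0.0286, the smallest that 4 and 4 samples allow. On TMM-scaled CPM that p was 0.0857.
Ciita was at 2.44, 2.86, 2.01 and 1.58 CPM in cell-free cores and at 5.66, 3.18, 3.90 and 2.46 CPM beside macrophages. The groups overlapped in the lowest library beside macrophages. Its log2 fold change was 0.66 (SE 0.24, adjusted p of 0.15 from edgeR).

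H2-DMb1 was at 6.63, 8.78, 5.85 and 9.11 CPM in cell-free cores and at 3.45, 6.36, 4.18 and 6.09 CPM beside macrophages, with a log2 fold change of -0.69 (SE 0.26, adjusted p of 0.16 from edgeR). Cd74 was at 4.71, 5.09, 1.52 and 6.02 CPM and at 3.50, 2.12, 1.16 and 3.73 CPM, with -0.86 (SE 0.45, adjusted p of 0.29). For both genes each library beside macrophages was lower than the cell-free library of the same number. The labels state no pairing of these samples. Replicate numbers were taken as pairs because residuals correlated in every pair (0.19 to 0.34), and libraries of the same number also share a run. Against fibroblasts the same cell-free libraries were not taken as pairs, with correlations down to 0.067. With the replicate as a block H2-DMb1 (-0.71, adjusted p of 0.033 from edgeR) and Cd74 (-0.82, adjusted p of 0.034) were called lower. With the run code as a block H2-Aa alone was called (1.09, adjusted p of 0.049). In the wider lists, Cd40 (-1.69) and Cd80 (-0.72) were called lower of 5 tested co-stimulation genes, and Itgam (-1.55) of 12 macrophage markers. Of 4 tested dendritic cell markers Itgax was called lower (-1.98), and 2 of the 4 had positive values. Of 5 endothelial markers, the receptor gene Kdr was called lower (-2.04) and Pecam1 higher (1.68), the latter with a median under 1 CPM. Over all genes 4.60% were called.

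Seeded fibroblasts were compared with cell-free hydrogels in the same way. By edgeR and by DESeq2 0 of 7 genes were called in WT cores, where edgeR called 2.61% of 16188 genes, and 0 of 6 tested genes in cores labelled KO, where it called 0.432% of 15965. By unadjusted p edgeR's count was 1 in each, Cd74 in WT cores (7.54% of all genes) and H2-Aa in cores labelled KO (7.14%). H2-Eb1 was not tested in the cores labelled KO.
Cd74 was at 4.71, 5.09, 1.52 and 6.02 CPM in WT cell-free cores, against 2.50, 1.73, 2.26 and 2.35 CPM beside fibroblasts. A single cell-free library, replicate 3, lay under the fibroblast cores and the other 3 above them. The log2 fold change was -0.87 (SE 0.36, adjusted p of 0.20 from edgeR), and without that library -1.16 with an adjusted p of 0.021, and Cd74 was then called. In the cores labelled KO, Cd74 was at 6.80, 2.66, 3.96 and 6.24 CPM in cell-free and 4.86, 1.59, 2.28 and 2.06 CPM in fibroblast assembloids, a log2 fold change of -0.85 (SE 0.40, adjusted p of 0.46 from edgeR), with overlapping groups. Cd74 in both of these comparisons and beside macrophages had values of similar size, and the comparisons in WT cores share the cell-free samples.

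The genotype label was compared in cell-free cores, in cores beside fibroblasts and in hydrogels. No gene in the whole table was called by adjusted p in any of these, nor in the interaction of genotype and fibroblasts, and 0 of the tested class II genes by DESeq2. In cell-free cores (0% of 16065 genes called), 1 of the 7 genes passed by unadjusted p, as did 1.24% of all genes. For the cores beside fibroblasts and the hydrogels, calls used an unadjusted p under 0.05, as the study did, and the count was 0 of 7 in the cores, where 2.44% of 16088 genes were called, and 0 of 6 in the hydrogels, where 0.755% of 15227 were. Log2 fold changes of the tested members ran from -0.83 to 0.27 in the cores beside fibroblasts and from -0.23 to 0.35 in the hydrogels. H2-DMb1 had 0.01 (SE 0.12) in the cores and 0.01 (SE 0.11) in the hydrogels, the smallest error of the members in each.

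H2-Aa gave the largest genotype values among cell-free cores. It was at 1.62, 0.280, 0.520 and 0.739 CPM in cores labelled KO and at 0.120, 0.291, 0.277 and 0.438 CPM in WT cores. The first library labelled KO, with 68 counts (95% exact Clopper-Pearson interval 1.26 to 2.06 CPM), stood above all others, and the groups overlapped. edgeR put the log2 fold change at 1.56 (SE 0.59, p = 0.025 before and 1.00 after adjustment), and the exact permutation p was 0.0857 (two-sided). Beside fibroblasts the cores labelled KO were at 0.115, 0.273, 0.422 and 0.224 CPM, a log2 fold change against the cell-free cores of the same label of -1.70 (SE 0.59, adjusted p of 0.28 from edgeR). The interaction of genotype and fibroblasts was -2.13 for H2-Aa (SE 0.77; adjusted p of 0.99 and unadjusted p of 0.013 from edgeR). Here 0% of 16772 genes were called by adjusted and 1.75% by unadjusted p, and H2-Aa was the 1 member under 0.05 without adjustment.

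In the hydrogels H2-Aa fell under edgeR's filter on low counts and was tested by exact permutation only. Hydrogels with a WT core were at 0.217, 0.564, 0.120, 0.134, 0.449 and 0.568 CPM in order of replicate number, and those labelled KO at 0.0199, 0.204, 0, 0.119, 0.406 and 0.0629 CPM. The groups overlapped, but the library labelled KO was the lower one in 6 of 6 pairs of the same number, which share a run. Means were 0.342 ± 0.210 and 0.135 ± 0.152 CPM (SD, n = 6 each), and the unpaired exact permutation test (two-sided) gave p = 0.0671. An exact paired permutation test added after these values were seen gave an unadjusted p = 0.0312, the smallest that 6 pairs allow, and it was run for all 7 genes, of which the others had p from 0.281 to 1.00. These libraries held 0 to 27 counts of H2-Aa.

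Cd74 in the hydrogels showed how far the genotype comparison rested on runs. Its mean was 5.86 ± 5.06 CPM (SD, n = 6) with cores labelled KO and 4.69 ± 1.93 CPM (SD, n = 6) with WT cores, a log2 fold change of 0.35 (SE 0.53, unadjusted p of 0.52 from edgeR). Within run 150 the means were 12.3 and 5.77 CPM, within run 152 they were 2.99 and 2.24 CPM, and within run 154 they were 2.24 and 6.07 CPM. The label with the higher level therefore differed between runs, with 2 samples on each side.

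**Figure D5:**
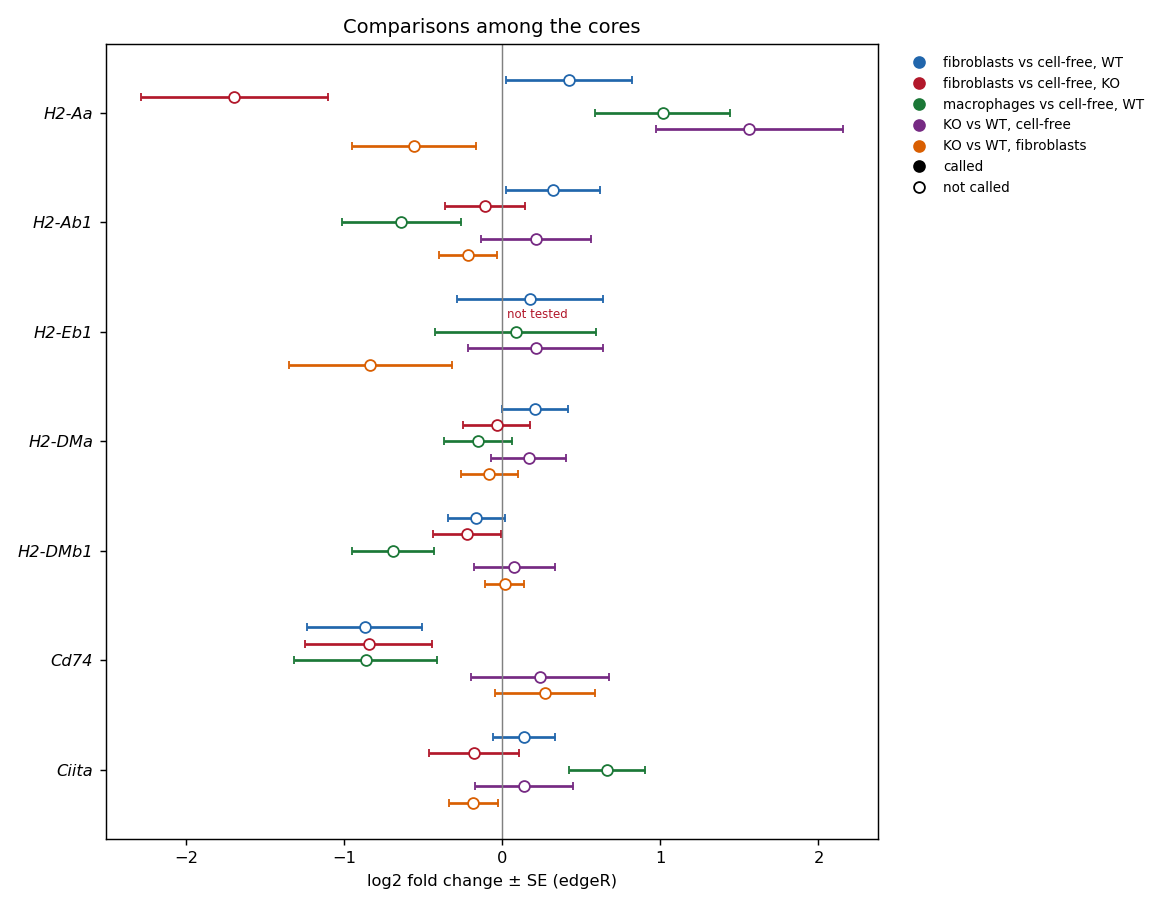
Log2 fold changes with their SE (edgeR) of the 7 genes in 5 comparisons among the core groups; open circles were not called. None was called, the values farthest from 0 are those of H2-Aa (1.56 and -1.70), and Cd74 lies between -0.85 and -0.87 in the 3 comparisons with cell-free cores.

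Across the 7 groups, ordered by mean CPM, neighbouring groups mostly could not be told apart. For H2-DMb1, 1 of 6 neighbouring pairs did not overlap, the hydrogels labelled KO (mean 14.4 CPM) above the cell-free cores labelled KO (7.73 CPM). For H2-Ab1 it was the hydrogels with a WT core (2.49 CPM) above the WT cores beside fibroblasts (1.55 CPM), and for Ciita the cores labelled KO beside fibroblasts (2.03 CPM) above the hydrogels labelled KO (0.593 CPM). Each of these pairs had p = 0.00952 in an exact permutation test (two-sided). For H2-Aa, H2-Eb1, H2-DMa and Cd74 all 6 neighbouring pairs overlapped. The share of all genes with groups that do not overlap was not computed. Each pair without overlap set a hydrogel group against a core group. Between compartments 42.8% of all genes were called with a WT core and 41.6% with a core labelled KO, so the separation is not read as particular to these genes.

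The members did not vary as a unit from sample to sample. Over the 20 cores the closest pairs by Pearson's r of log2(CPM + 0.5) were H2-DMb1 with Cd74 (0.57) and H2-DMb1 with H2-Ab1 (0.54), and H2-DMb1 with Ciita had -0.79. Over the 12 hydrogels H2-Ab1 with Cd74 had 0.76 and Ciita with H2-Eb1 had 0.68, and H2-DMb1 with Ciita had -0.0046. H2-DMb1 with its partner H2-DMa had 0.45 in the cores and 0.45 in the hydrogels. These values are descriptions over samples that share batches and scaling.

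Genes with a profile like that of the members were sought among genes with a mean of at least 2 CPM. In the 20 cores, the 6 genes whose levels followed the mean of the 6 structural members most closely were Alyref, Gins4, Mad2l1bp, Hist1h2be, Dnajc9 and Cct7 (r from 0.86 to 0.90, among 12122 genes). For Ciita they were Abcc10, Zfp112, Mapk12, Rsad1, Alg6 and Nbea (r from 0.93 to 0.94). In the 12 hydrogels they were Oit3, Klf8, Depdc1a, Cadm1, Chd1l and Nup107 for the structural members (r from 0.87 to 0.93, among 11956 genes) and Ulk3, St3gal1, Hoxc12, Iars, mt-Nd4 and Uaca for Ciita (r from 0.86 to 0.89). The lists for cores and hydrogels shared no gene, and none of the genes on them belongs to the antigen presentation lists.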

How the data were processed

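The deposited values were estimated counts per Ensembl gene from ribosomal RNA-depleted, stranded total RNA libraries, which the authors made with kallisto (version 0.46.1) and wrote as whole numbers without normalization. The submitters' processing notes name GRCm39, and no annotation release is given there or in the methods. Symbols came from GENCODE M21 (25587 of 25700 IDs). CPM was computed on the library total. Tests used edgeR (version 4.0.16, R version 4.3.3): filterByExpr, TMM and the quasi-likelihood F-test on the groups compared, without a block. SEs were derived from the log2 fold change and F. Exact permutation tests (two-sided, SciPy 1.17.1) compared mean log2(CPM + 0.5). The pipeline was tested on simulated counts. The members, the gene lists and the tests were chosen with earlier results of these data known; up to 4 genes with the lowest p were named per list, and the 6 most similar genes per profile. Some genes of the lists are not reported here.

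Alternatives were DESeq2 (version 1.42.0), RLE factors, a filter of 10 counts per sample or none, another p or fold threshold, a replicate or run block, 1 fit of all 5 core groups, TMM-scaled CPM and each sample left out. Replicate numbers, or run and N code between compartments, were taken as pairing where residuals correlated over 0.1 in every pair: beside macrophages against cell-free (0.19 to 0.34), fibroblasts against cell-free in cores labelled KO (0.20 to 0.39), the hydrogels (0.26 to 0.60) and both compartment comparisons (0.23 to 0.42).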

Additional observations from a re-analysis of the deposited data

Results flagged for a closer look

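Among 49 sets of values (7 genes in 7 groups), a test for single outlying samples picked out 1: Ciita in the hydrogel labelled KO, replicate 5, at 1.16 CPM (37 counts), above the other 5 hydrogels of its group, which lay between 0.339 and 0.612 CPM. Chance alone picks about 1 group in 20. The same library had the lowest summed macrophage marker level of the series (2117 CPM), and the part of that in the Ciita value was not tested.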

How the results depend on the processing

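Counts of called members were the same, within 1.5 times, under DESeq2, RLE factors, a filter of 10 counts per sample or none, no fold threshold and 1 fit of all core groups. The count for macrophages against cell-free cores was 2 with the replicate block and 1 with the run block, and 0 members (1 before, H2-Aa) had an exact p under 0.05 there on TMM-scaled CPM. By unadjusted p it was 3, and 1 each for fibroblasts in WT and labelled KO cores, for the label in cell-free cores and for the interaction. With each sample left out, the count ranged from 0 to 1 for fibroblasts in WT cores (Cd74, without cell-free replicate 3) and from 0 to 1 for the label beside fibroblasts (H2-Eb1, -1.10 without WT replicate 2 and -1.40 without KO replicate 3). In the pairing between compartments, Cd74 with a core labelled KO was 0.90 with the replicate block and 0.79 with the run block, both called; the block changed no call not named here.

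Values near 0 changed sign under some settings: H2-Eb1 beside macrophages was -0.00280 and Cd74 in the interaction -0.014 with the replicate block (-0.00767 with the run block), H2-Aa and H2-Eb1 between WT compartments were 0.020 and 9.48e-05 without a filter, and H2-DMb1 between hydrogel labels was 0.032 on TMM-scaled CPM. With samples left out, the ranges that crossed 0 were for the label in cell-free cores Cd74 -0.048 to 0.49, Ciita -0.16 to 0.31, H2-Ab1 -0.017 to 0.58, H2-DMb1 -0.066 to 0.26, H2-Eb1 -0.022 to 0.46, for the label beside fibroblasts Cd74 -0.20 to 0.44, H2-DMa -0.20 to 0.031, H2-DMb1 -0.075 to 0.11, for the label in hydrogels Cd74 -0.082 to 0.56, Ciita -0.14 to 0.29, H2-DMa -0.0081 to 0.15, H2-DMb1 -0.048 to 0.063, in the interaction Cd74 -0.43 to 0.31, H2-DMb1 -0.25 to 0.078, for fibroblasts in cores labelled KO Ciita -0.36 to 0.12, H2-Ab1 -0.23 to 0.11, H2-DMa -0.16 to 0.069, between WT compartments H2-Aa -0.30 to 0.17, H2-DMa -0.016 to 0.19, H2-Eb1 -0.32 to 0.24, beside macrophages H2-DMa -0.25 to 0.041, H2-Eb1 -0.35 to 0.40, for fibroblasts in WT cores H2-Eb1 -0.13 to 0.44. The cause of these changes was not tested. H2-Aa and H2-Eb1 rest on 0 to 68 counts per library, which limits what the depth can show.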
